A study of Mus musculus with 33 samples.

Results

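The ovarian gap junction genes Gja4, Gja1 and Gjc1 were followed in single germinal vesicle oocytes of mice with 0, 1 or 2 mutant copies of Nlrp5. They are 3 of 35321 genes in the count table and 3 of its 20 connexin genes. They were chosen by name, with earlier results of these libraries known: Gja1 had already been seen at high counts in Nlrp5 -/- oocytes. Its genotype difference is therefore given as a description.

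Connexins assemble into channels that join the cytoplasm of neighbouring cells. In the follicle, the connexin encoded by Gja4 (Cx37) forms the channels between the oocyte and the granulosa cells around it, whose thin transzonal projections reach the oocyte surface. The connexin encoded by Gja1 (Cx43) joins granulosa cells to each other and is used as a granulosa cell marker. Gjc1 encodes Cx45, a connexin best known from heart conduction tissue and blood vessels and also described in ovarian somatic cells. Through these channels the oocyte receives nutrients and the cyclic GMP that holds it in meiotic arrest.

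The series holds 33 single oocytes from 3-week-old C57BL6/Babr females, of which 10 were Nlrp5 +/+, 16 Nlrp5 +/- and 7 Nlrp5 -/-. The mutant allele is a frameshift made by CRISPR/Cas9 in zygotes, and every cell of the animal carries it. Per the methods, Nlrp5 -/- and Nlrp5 +/- females were littermates while Nlrp5 +/+ females usually came from the founding colony, so colony and wild-type genotype cannot be told apart in a comparison with Nlrp5 +/+. Oocytes were freed from the ovary by collagenase and trypsin, a procedure meant to leave somatic cells behind, and no hormone was given. The stage of each oocyte, non-surrounded nucleolus (NSN, less mature) or surrounded nucleolus (SN, more mature), is not in the labels. The study called it from marker genes in the same libraries, none of which is a connexin gene, and it was read here from the bar of the study's staging figure. That reading gave 4 NSN and 6 SN oocytes for Nlrp5 +/+, 9 and 7 for Nlrp5 +/-, and 4 and 2 for Nlrp5 -/-. The study's text counts fewer staged Nlrp5 +/- oocytes than were read from that bar, so the Nlrp5 +/- stages are less certain than the others. One Nlrp5 -/- oocyte, number 15, has no stage, and the stages of Nlrp5 +/- oocytes 55 and 61 were uncertain. They were counted as SN and NSN, and results that rest on them are given both ways. The labels name no mouse, so the oocytes of a genotype and stage count as 1 sample and no difference below has a test. SD values describe the spread between oocytes.

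Total counts ran from 4223595 to 15573360 per oocyte. Levels are given as normalized counts, the counts divided by a size factor of each library, or as CPM, the counts scaled by the library total. Nlrp5 itself, the targeted gene, had 1362 to 2556 normalized counts in the 7 Nlrp5 -/- oocytes, 5062 to 13472 in the 16 Nlrp5 +/- oocytes and 10114 to 29131 in the 10 Nlrp5 +/+ oocytes, so the Nlrp5 -/- libraries did not overlap the others. The oocyte marker Gdf9 lay between 32836 and 82064 in every library. Oocytes 13, 14 and 15, all Nlrp5 -/-, share a first index sequence and stand apart in the granulosa markers described further on, as does Nlrp5 -/- oocyte 7. Nlrp5 +/- oocyte 61 stands apart in the sum of these markers, most of it from the gene Hsd3b1. The Gja1 results are also given without these oocytes where they decide them, and the marker lists and the genes that turn on them without oocytes 7, 13 and 14. The first index is nested in genotype: each of the 10 first indices holds oocytes of a single genotype.

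The genes lie on different chromosomes in the deposited GRCm38 coordinates. Gja4 spans chr4:127311421-127314039 on the minus strand, Gja1 spans chr10:56377330-56402513 on the plus strand, and Gjc1 spans chr11:102799579-102819700 on the minus strand. Each has 1 coding exon. Most connexins, these 3 included, carry 3 cysteines in each of their extracellular loops, spaced in a conserved pattern, which bond the loops and let a channel dock with that of the next cell. The coding stretch of these loops is shown because it is the family's signature, and because its likeness bears on whether reads of one member can be told from another. The sequences are from the GENCODE M39 transcripts (GRCm39), 5′ to 3′ on the coding strand, with the cysteine codons in capitals.
First loop of Gja1, coding bases 160 to 195: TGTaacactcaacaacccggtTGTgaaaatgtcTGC
First loop of Gja4, coding bases 160 to 195: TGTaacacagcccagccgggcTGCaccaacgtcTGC
First loop of Gjc1, coding bases 157 to 192: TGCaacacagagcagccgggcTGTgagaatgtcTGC
Second loop of Gja1, coding bases 559 to 594: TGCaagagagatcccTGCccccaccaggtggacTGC
Second loop of Gja4, coding bases 559 to 594: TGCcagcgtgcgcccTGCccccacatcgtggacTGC
Second loop of Gjc1, coding bases 625 to 660: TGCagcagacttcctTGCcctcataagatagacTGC
All 3 cysteine codons were found at the same spacing in the 3 genes. Gja1 and Gja4 shared 24 of 36 bases in the first loop and 28 of 36 in the second. The longest identical run between these 2 transcripts was 26 bases, against 17 for Gja1 and Gjc1 and 13 for Gja4 and Gjc1. Of the 4651 windows of 50 bases in the Gja1 transcript, 0 occurred in another gene's transcripts, so no exact match of that length exists between Gja1 and Gja4. In Gja4, 430 of 1655 such windows are shared with Gm69784, a non-coding gene annotated on the opposite strand. The strand setting of the counting is not given in the sources used here, so in this stretch reads of that gene and of Gja4 cannot be told apart. In Gjc1, 101 of 5589 windows are shared with 257 genes.

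Gja4 was by far the most abundant connexin of these oocytes. Over the 33 oocytes its mean was 5241 normalized counts, rank 154 among 27209 genes with a count. Gja1 averaged 84.8 normalized counts and Gjc1 4.48, ranks 8883 and 15679. Per kilobase of transcript, the mean level was 399.5 CPM for Gja4, 2.35 CPM for Gja1 and 0.105 CPM for Gjc1. Gja4 took a median of 96.3% of the counts on all 20 connexin genes, with 98.5% as the highest share. The lowest share, 74.4%, was in oocyte 15, and the lowest without it was 87.04%.

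Gja4 had counts in all 33 oocytes, Gja1 in 30 and Gjc1 in 19. Gja4 and Gja1 passed a mean of 10 normalized counts over the 33 oocytes and Gjc1 did not. The mean of Gja1 rested on the Nlrp5 -/- oocytes: over the 10 Nlrp5 +/+ oocytes it was 6.46 and over the 16 Nlrp5 +/- oocytes 13.6. Of the other 17 connexin genes, Gjb1, the liver and myelin connexin, came next per kilobase at 4.61 CPM, then Gja10 at 2.29 CPM, Gjb2 at 1.33 CPM and Gja3 at 1.15 CPM. Panx1, which encodes a channel protein of the separate pannexin family, stood at 7.67 CPM per kilobase, between Gja4 and Gjb1.

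**Figure D1:**
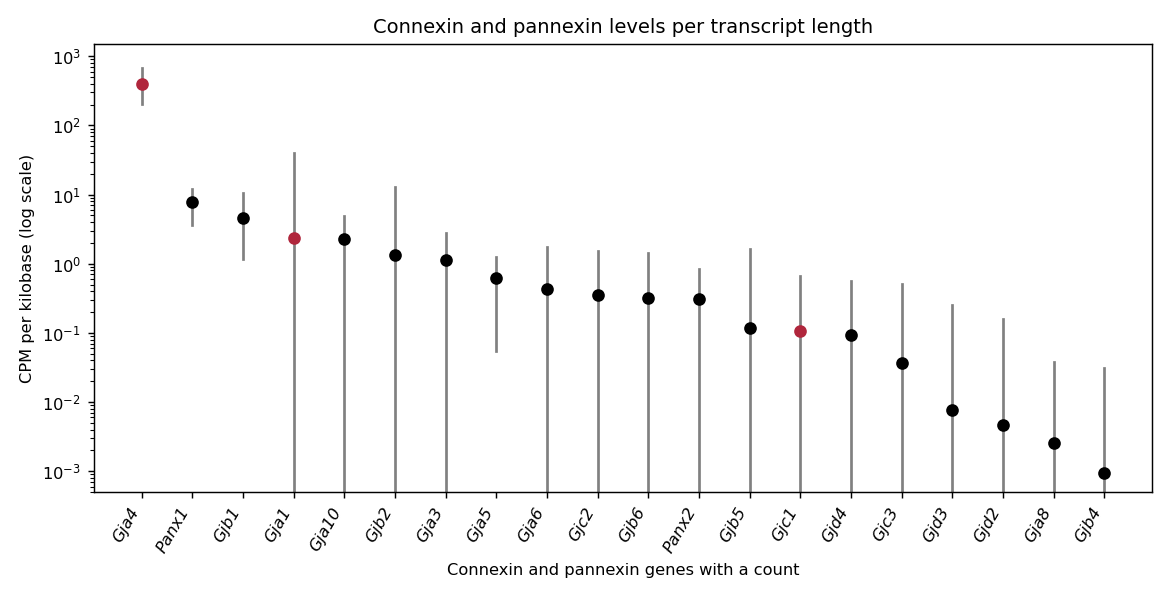
Level of the connexin and pannexin genes with a count, in CPM per kilobase of transcript on a log scale. Points are means over 33 oocytes and lines run from the lowest to the highest oocyte; a line that reaches the lower edge of the plot starts at 0. Gja4 (399.5), Gja1 (2.35) and Gjc1 (0.105) are in red.

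Gja4, the oocyte's own connexin, kept a high level in every genotype and stage. In Nlrp5 +/+ NSN oocytes it had 2553, 2846, 4018 and 5362 normalized counts (mean 3695 ± 1279, SD, n = 4). In Nlrp5 -/- NSN oocytes it had 5085, 5399, 5706 and 5972 (mean 5541 ± 384, SD, n = 4). The groups overlapped, with 3 of the 4 Nlrp5 -/- oocytes above the highest Nlrp5 +/+ oocyte. The log2 difference of the means was 0.58. Of the 13833 genes with a mean of at least 10 in this comparison, 4.93% were higher by a log2 difference of at least 1, and Gja4 was not among them.

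The 9 Nlrp5 +/- NSN oocytes ranged from 3000 to 8334 normalized counts of Gja4 around a median of 5115, and covered the Nlrp5 -/- range. The comparisons of the mutant genotypes with Nlrp5 +/+ share the Nlrp5 +/+ oocytes. The Nlrp5 +/- mean of 5091 ± 1636 (SD, n = 9) lay 0.46 above Nlrp5 +/+ on the log2 scale and 0.12 below Nlrp5 -/-. The Nlrp5 +/+ NSN oocytes were the lowest group by mean.

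In SN oocytes, Gja4 ran from 4169 to 7026 normalized counts in Nlrp5 +/+ (median 4969, mean 5424 ± 1269, SD, n = 6) and from 3652 to 6436 in Nlrp5 +/- (median 5669, mean 5487 ± 910, SD, n = 7). The 2 Nlrp5 -/- SN oocytes had 5537 and 8900. Oocyte 7, at 8900, was the highest of all 33 oocytes and decided the group's log2 difference of 0.41 from Nlrp5 +/+, which was 0.030 without it. The other Nlrp5 -/- SN oocyte lay inside the range of both other genotypes.

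From NSN to SN, Gja4 differed mainly in Nlrp5 +/+ oocytes, where the mean was 0.55 higher on the log2 scale in SN and 3 of 6 SN oocytes were above every NSN oocyte. The log2 difference was 0.11 in Nlrp5 +/- oocytes, where the ranges overlapped widely. It was 0.38 in Nlrp5 -/- oocytes, and -0.00087 without oocyte 7. These stage differences were not compared with each other by a test. In order of mean, the groups ran from Nlrp5 +/+ NSN, Nlrp5 +/- NSN, Nlrp5 +/+ SN, Nlrp5 +/- SN and Nlrp5 -/- NSN to Nlrp5 -/- SN. Each neighbour in this order differed from the next by less than the larger of their SDs.

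Gja1, the granulosa connexin, was close to the detection limit in most oocytes and high in some Nlrp5 -/- oocytes. The 4 Nlrp5 +/+ NSN oocytes had 0, 0.922, 2.22 and 4.70 normalized counts, from 11 reads in all. The 4 Nlrp5 -/- NSN oocytes had 13.2, 20.5, 382 and 515, from 983 reads. The groups did not overlap, as was so for 3.96% of the genes tested in that direction. Gja1 was among the genes tested only through the Nlrp5 -/- oocytes, so nothing is read from that share. The 2 Nlrp5 -/- oocytes at 382 and 515 are numbers 13 and 14.

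The means were 1.96 ± 2.04 and 232.6 ± 255.01 (SD, n = 4 each), a log2 difference of 6.30 after adding 1 to each mean. Pooled over the oocytes of a group, Gja1 made up 0.298 CPM in Nlrp5 +/+ NSN (95% exact Poisson interval 0.149 to 0.533) and 31.9 CPM in Nlrp5 -/- NSN (29.9 to 33.9). These intervals cover counting error only. Without oocytes 13 and 14, a choice made after seeing the values, the log2 difference was 2.59, and oocytes 29 and 30 still lay above all 4 Nlrp5 +/+ oocytes. With oocyte 15, at 1452 normalized counts, counted as NSN it was 7.33.

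The 9 Nlrp5 +/- NSN oocytes had between 0 and 51.5 normalized counts of Gja1 with a median of 3.42 (mean 8.92 ± 16.3, SD, n = 9). The highest was oocyte 61, and the next was at 8.29. The log2 difference from Nlrp5 +/+ was 1.74, where 6.58% of all genes with a count were higher by at least 1. It was 0.63 without oocyte 61 or with it counted as SN. With medians in place of means it was 0.78, and with 5 added in place of 1 it was 1.00. Against Nlrp5 -/-, 2 of the 4 Nlrp5 -/- oocytes, numbers 13 and 14, lay above every Nlrp5 +/- oocyte. That log2 difference of 4.56, in a comparison where 3.07% of genes were higher by at least 1, was 0.85 without them. Gja1 was among the genes of that comparison only through the Nlrp5 -/- oocytes, so nothing is read from the 3.07%.

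In SN oocytes Gja1 ran from 2.41 to 20.2 normalized counts in Nlrp5 +/+ (median 5.22, mean 9.45 ± 8.40, SD, n = 6) and from 1.33 to 42.0 in Nlrp5 +/- (median 21.6, mean 19.6 ± 15.9, SD, n = 7). The 2 Nlrp5 -/- SN oocytes had 21.0 and 110.6. Both lay above all 6 Nlrp5 +/+ oocytes, a separation that 7.24% of the genes tested showed, but only oocyte 7 lay above the Nlrp5 +/- range. The margin of the lower one was small, 21.0 against 20.2, with counting intervals of 14.1 to 30.1 and 10.8 to 34.6. Against Nlrp5 +/+, Gja1 was among the genes tested only through the Nlrp5 -/- oocytes. Nothing is therefore read from the 7.24%, or from the 4.07% that follows. The log2 difference from Nlrp5 +/+ was 2.68, where 4.07% of genes were higher by at least 1, and 1.07 without oocyte 7. From Nlrp5 +/- it was 1.69, where 3.35% of genes were, and 0.091 without oocyte 7. For Nlrp5 +/- against Nlrp5 +/+ it was 0.98, where 4 of 7 Nlrp5 +/- oocytes were above the highest Nlrp5 +/+ oocyte and 1 was below the lowest, and 1.24 with oocyte 61 counted as SN. With medians in place of means it was 1.86. With the stages of oocytes 55 and 61 exchanged, the difference of Nlrp5 +/- from Nlrp5 +/+ was 1.17 in NSN and 1.25 in SN oocytes.

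In order of mean, Gja1 ran from Nlrp5 +/+ NSN, Nlrp5 +/- NSN, Nlrp5 +/+ SN, Nlrp5 +/- SN and Nlrp5 -/- SN to Nlrp5 -/- NSN. No neighbouring groups in this order differed by more than the larger of their SDs. The SD of each Nlrp5 -/- group was about as large as its mean.

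**Figure D2:**
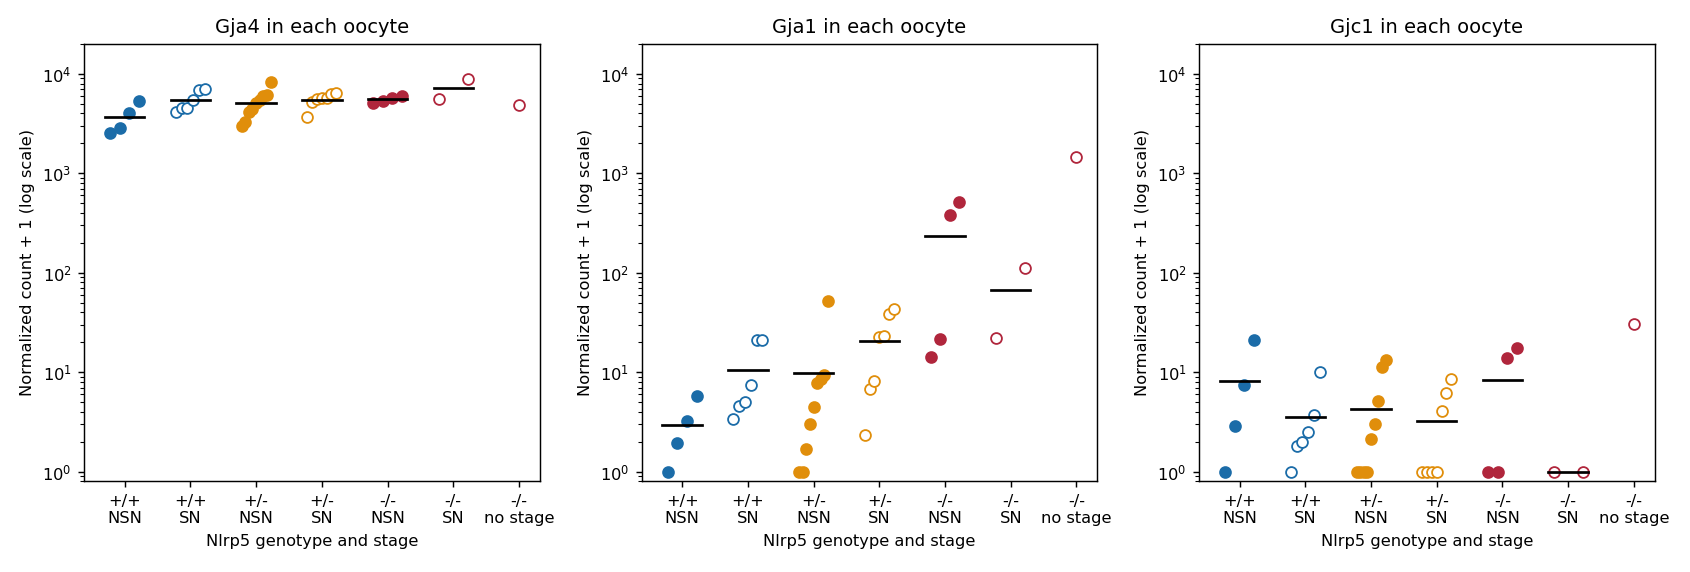
Normalized count plus 1 of Gja4, Gja1 and Gjc1 in each of the 33 oocytes, on log axes, by Nlrp5 genotype and stage. Filled points are NSN oocytes, open points SN oocytes or the oocyte without a stage, and bars are group means. Gja4 stays between 2553 and 8900 while Gja1 spans 0 to 1452.

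Read per oocyte, both connexins gave a ratio that removes the scaling of the library. Gja1 as a percent of Gja4, each divided by its transcript length, had a median of 0.0189% in Nlrp5 +/+ NSN oocytes (0 to 0.0424%) and 0.0340% in Nlrp5 +/+ SN oocytes (0.0186 to 0.163%). In Nlrp5 +/- oocytes it was 0.0330% for NSN (0 to 0.306%) and 0.142% for SN (0.00851 to 0.237%). In Nlrp5 -/- NSN oocytes the 4 values were 0.0886, 0.130, 2.72 and 3.13%, and in the SN oocytes 0.137 and 0.451%. All 4 Nlrp5 -/- NSN oocytes were above the Nlrp5 +/+ NSN range, and 2 of them were inside the Nlrp5 +/- NSN range.

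Oocyte 15 had the highest ratio, 10.9% (exact binomial 95% interval 10.4 to 11.5%). Oocytes 13 and 14 followed, with intervals of 2.35 to 3.14% and 2.90 to 3.37% that overlap each other. Oocyte 7 came next at 0.451% (0.358 to 0.560%), and its interval overlaps that of Nlrp5 +/- oocyte 61 at 0.306% (0.216 to 0.421%). All other oocytes lay at or below 0.237%. Gja4 thus exceeded Gja1 per length in every oocyte.

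**Figure D3:**
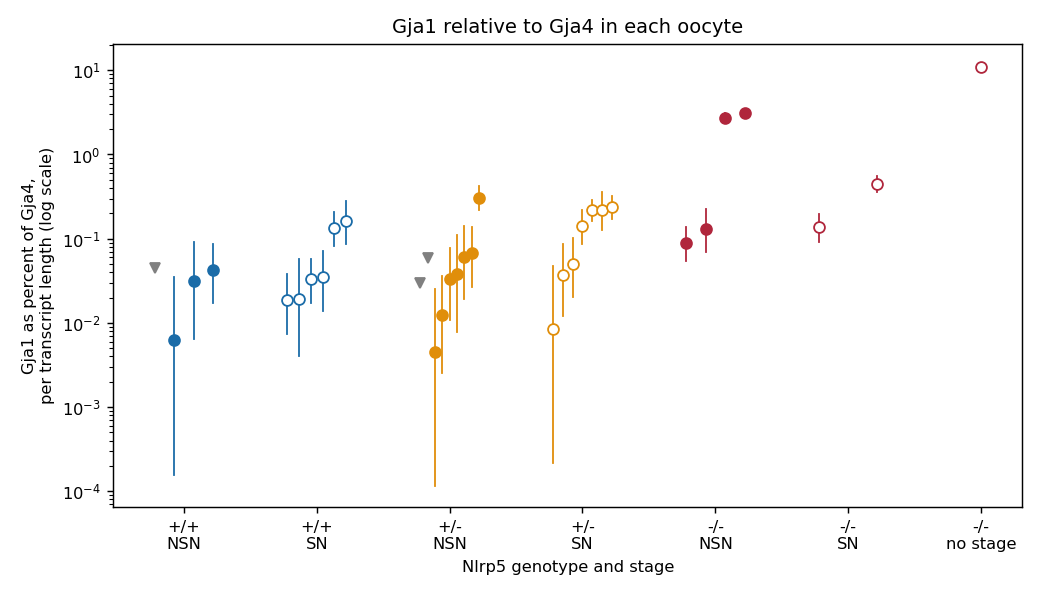
Gja1 as a percent of Gja4 in each oocyte, per transcript length, on a log axis. Filled points are NSN and open points SN or unstaged oocytes, lines are exact binomial 95% intervals, and grey triangles mark the upper limit of the 3 oocytes with 0 Gja1 counts. Oocytes 13, 14 and 15 lie at 2.72, 3.13 and 10.9%.

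Gja1 was read beside the other granulosa cell markers of a 20-gene list. Of the 19 others, Cyp19a1, Kitl, Nr5a2, Serpine2 and Slc18a2 had a mean of at least 50 normalized counts in Nlrp5 +/+ oocytes. The summed level of all 19 was 313 to 507 CPM in Nlrp5 +/+ oocytes, 337 to 504 CPM in Nlrp5 +/- oocytes and 325 to 918 CPM in the staged Nlrp5 -/- oocytes, with oocyte 14 at the top, and 2140 CPM in oocyte 15. Over the 33 oocytes Gja1 and this sum had a Spearman rank correlation of 0.36 and a Pearson r of 0.65 on log2 values. Without oocyte 15 these were 0.30 and 0.51.

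The 14 markers with a mean under 50 in Nlrp5 +/+ oocytes, a division made after seeing the values, followed Gja1 more closely. They include the inhibin and activin subunit genes Inha, Inhba and Inhbb, the anti-Mullerian hormone gene Amh and its receptor gene Amhr2, the FSH receptor gene Fshr, the ovarian transcription factor gene Foxl2 and the steroid enzyme genes Hsd17b1 and Hsd3b1. Their sum was 2.61 to 14.7 CPM in Nlrp5 +/+ oocytes and 6.34 to 189 CPM in Nlrp5 +/- oocytes, where oocyte 61 held the 189 CPM and the next was at 68.8 CPM. In the Nlrp5 -/- oocytes it was 17.6, 19.5 and 25.7 CPM in numbers 30, 31 and 29, 117 CPM in number 7, 159 CPM in number 13, 508 CPM in number 14 and 1668 CPM in number 15. Hsd3b1 held 869 of the 1088 reads behind the sum in oocyte 61, 1982 of 5246 in oocyte 14 and 5497 of 15536 in oocyte 15. In oocytes 7 and 13 it held 95 of 675 and 150 of 673. The rank correlation of the sum with Gja1 was 0.69 over 33 oocytes, 0.66 without oocyte 15 and 0.51 over the 26 oocytes that were not Nlrp5 -/-. The part of granulosa cell RNA in the Gja1 levels was not tested.

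Marker by marker, 14 of the 14 exceeded the highest Nlrp5 +/+ oocyte in oocyte 14, 13 did so in oocyte 15, 9 in oocyte 13 and 7 in oocyte 7. In oocytes 29, 30 and 31 the number was 5, 2 and 4. The share of all genes above the Nlrp5 +/+ maximum in each library is not given here, so these counts and those below have no background. The 14 were picked for low levels in Nlrp5 +/+ oocytes, where some maxima were small, 1.56 normalized counts for Amh and 3.01 for Foxl2. Foxl2, which defines granulosa cells, had 345 reads in oocyte 15, 39 in oocyte 14 and 0 in oocytes 7 and 13. Hsd17b1 was above the highest Nlrp5 +/+ value of 7.79 normalized counts in all 4 of these libraries, at 109, 131, 329 and 1145 in oocytes 7, 13, 14 and 15. The 16 Nlrp5 +/- oocytes had 1 to 9 of the 14 above the highest Nlrp5 +/+ oocyte, a range that reaches the 7 and 9 of oocytes 7 and 13. The most were 9 in oocyte 47, with 49 reads of Gja1, and 8 in oocyte 62, with 0 reads of Gja1. Oocyte 61, whose marker sum was the highest of these, had 6 of the 14 above the Nlrp5 +/+ maximum and 7 of the 14 at 0, among them Amh, Foxl2, Hsd17b1 and Inhba.

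Inha, the marker most like Gja1 in these same libraries, gave a second ratio. For every 100 reads of Inha there were 53.6 of Gja1 in oocyte 15 (95% interval 50.5 to 56.8), 56.8 in oocyte 14 (51.9 to 62.3), 73.7 in oocyte 13 (61.3 to 88.5) and 23.2 in oocyte 7 (18.0 to 29.6). Oocytes 14 and 15 thus shared a ratio within counting error, while the intervals of oocytes 7 and 13 lay on either side of that of oocyte 15. Oocytes 29, 30 and 31, with 13, 20 and 29 reads of Gja1, gave 33.3, 57.1 and 36.3. Their intervals (16.3 to 63.8, 31.3 to 102 and 22.8 to 56.1) overlap that of oocyte 15. In Nlrp5 +/- oocytes the ratio was not constant. It was 3.33 in oocyte 45 (0.0817 to 20.1), 6.82 in oocyte 48 (1.35 to 21.3) and 10.4 in oocyte 40 (3.24 to 26.0). Oocyte 62 gave 0 (0 to 18.3). These intervals lie below that of oocyte 15. That of oocyte 63 lies above it, and those of the other Nlrp5 +/- oocytes overlap it. Gja4 was not tied to these markers to the same degree: its rank correlation with the 14-marker sum was 0.31 over the 33 oocytes.

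**Figure D4:**
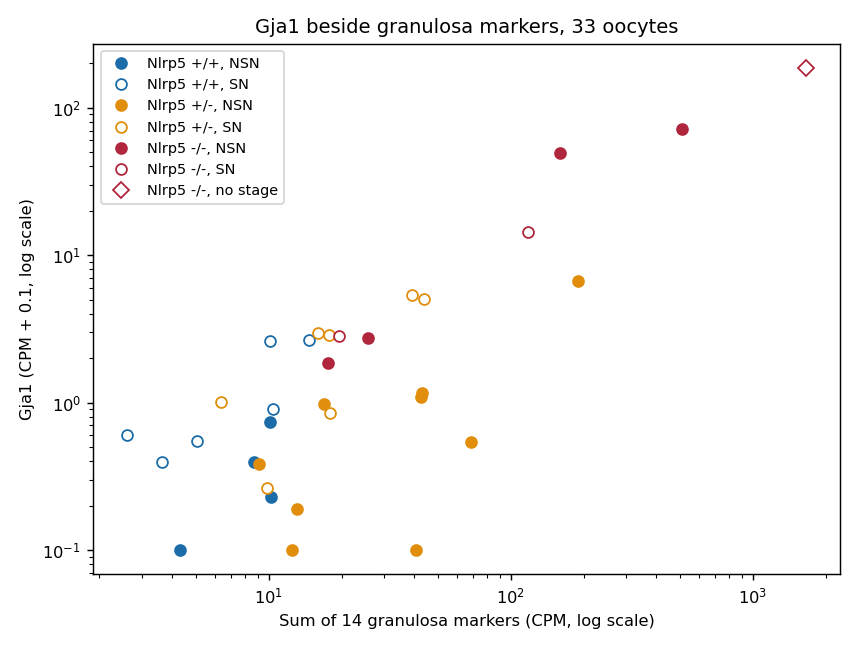
Gja1 (CPM plus 0.1) against the summed CPM of 14 granulosa markers in each of the 33 oocytes, both on log axes. Colours give the Nlrp5 genotype, filled points NSN and open points SN oocytes, and the diamond is oocyte 15. Oocytes 7, 13, 14 and 15 lie at 117, 159, 508 and 1668 CPM of markers.

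Other cell types were looked at in the same way. The 9 theca and interstitial markers summed to 27.7 to 61.6 CPM in Nlrp5 +/+ oocytes, 28.4 to 276 CPM in Nlrp5 +/- oocytes and 48.3 to 129 CPM in the staged Nlrp5 -/- oocytes. The value of 276 CPM is that of oocyte 61, the Nlrp5 +/- oocyte with most Gja1, and the next was 95.6 CPM. The 11 markers of stroma, vessels and blood summed to 46.5 to 88.7, 62.8 to 108 and 80.2 to 132 CPM. In oocyte 15 these sums were 185 and 300.1 CPM. The 10 oocyte markers found in the table summed to 20863 to 32856 CPM in the staged oocytes and to 17714 CPM in oocyte 15. Over the whole lists, with no filter on low counts, 13 of 19 granulosa, 7 of 11 stroma, 5 of 9 theca and 0 of 10 oocyte markers were higher in Nlrp5 -/- than in Nlrp5 +/+ NSN oocytes by a log2 difference of at least 1, where 10.9% of all genes with a count were. In that comparison 0, 2, 0 and 0 were lower by as much, where 7.53% of all genes were. Without oocytes 13 and 14 the numbers higher were 6, 6, 5 and 0, where 8.08% of all genes were, and 1, 2, 1 and 0 were lower, where 11.8% were. In SN oocytes the numbers higher were 10, 5, 4 and 0, where 8.31% were, and 1 granulosa and 2 stroma markers were lower, where 11.1% were. Without oocyte 7 the numbers higher were 5, 5, 2 and 0, where 8.46% were, and 2, 1, 1 and 0 were lower, where 14.3% were. Without oocyte 31 they were 8, 1, 4 and 0, where 9.98% were, and 6 of the 11 stroma markers were lower, where 19.4% were, so the stroma markers turned on that oocyte. For Nlrp5 +/- against Nlrp5 +/+ the numbers higher were 12, 3, 5 and 0 in NSN oocytes, where 6.58% were, or 10, 3, 4 and 0 without oocyte 61, where 5.98% were. With all these NSN oocytes 1, 2, 1 and 0 were lower, where 5.05% were. In SN oocytes of these genotypes the numbers higher were 7, 4, 4 and 0, where 4.58% were. For Nlrp5 -/- against Nlrp5 +/- SN oocytes 7 granulosa, 0 stroma, 1 theca and 0 oocyte markers were higher, where 7.69% of genes were, and 3, 4, 2 and 0 were lower, where 10.8% were. The part of these other cells in the connexin levels was not tested.

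From NSN to SN, the direction of Gja1 depended on how the oocytes were set side by side. The group mean was higher in SN by 1.82 on the log2 scale in Nlrp5 +/+ oocytes, and by 1.05 with 5 added in place of 1. Of the genes with a mean of at least 10 there, 3.97% were higher by at least 1, but Gja1 is not one of them. In Nlrp5 +/- oocytes the group mean of Gja1 was higher by 1.06, by 2.42 with oocyte 61 counted as SN, and by 1.90 with oocytes 55 and 61 exchanged. There 2.02% of genes were higher by at least 1, and Gja1 passed the mean of 10 only through the SN oocytes. Nothing is read from these shares. In Nlrp5 -/- oocytes the group mean was lower in SN, at -1.81, where 11.4% of genes were lower by at least 1. Leaving out 1 oocyte at a time gave -3.41 (without oocyte 7) to -1.06 (without oocyte 14). Without oocytes 13 and 14 it was higher, at 1.90, and 3.32% of genes were higher by at least 1 in that comparison with both included. Within the 6 sets of libraries that share a first index and hold both stages, each SN oocyte had more Gja1 than each NSN oocyte of its set, for 10 SN and 11 NSN oocytes. This held for 1.53% of 13687 genes tested, and it was noticed after the values had been seen. In 1 of the 6 sets, oocytes 46 and 47 against 45 and 48, the counting intervals of the lowest SN and the highest NSN oocyte did not overlap: 42.0 and 37.5 normalized counts against 0.681 and 2.03. Oocyte 61 lies in a set without an SN oocyte, and with it counted as SN the order held in 7 of 7 sets. With oocyte 55 counted as NSN its set had no SN oocyte, and the order held in 5 of 5 sets, or in 6 of 6 with oocyte 61 as SN.

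Gja4 had that order in 3 of the 6 sets and Gjc1 in 1. In the Nlrp5 +/+ set of oocytes 77 to 80, Gja4 was at 4495 and 4516 normalized counts in SN and at 2553 and 2846 in NSN oocytes. In the Nlrp5 -/- set of oocytes 29, 30 and 31 it was at 5537 in the SN oocyte, between the 5399 and 5706 of the NSN oocytes. Set 53 to 56 had the widest spread, with its SN oocyte at 3652 and its NSN oocytes from 3262 to 8334.

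**Figure D5:**
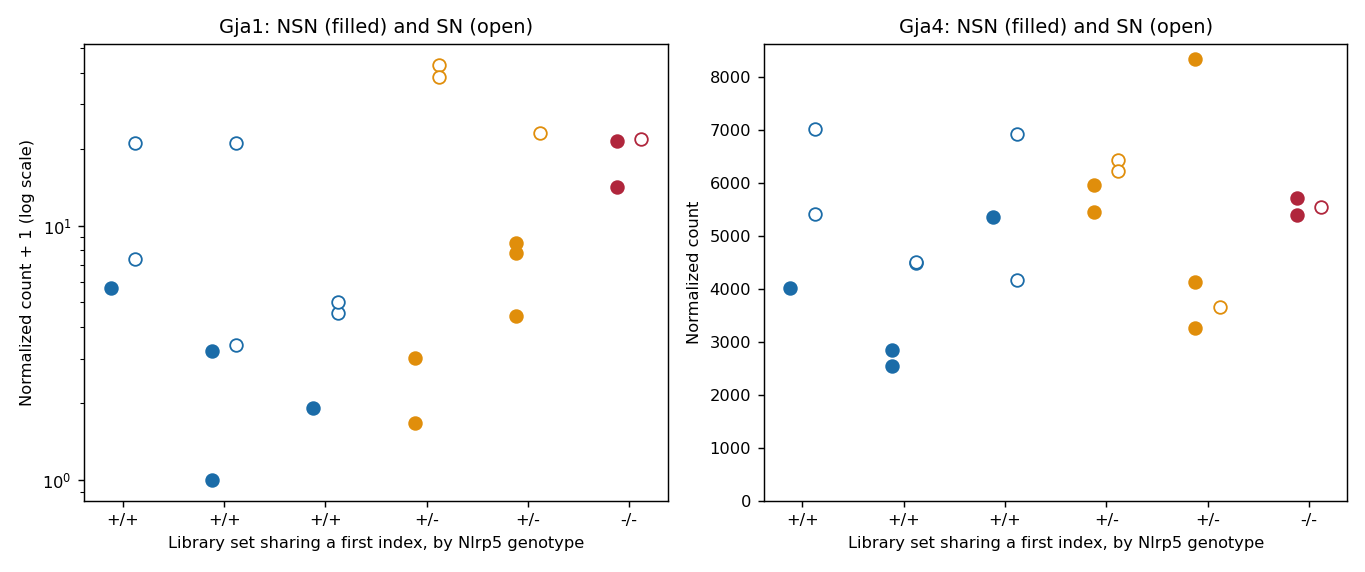
Gja1 (normalized count plus 1, log axis) and Gja4 (normalized count, linear axis from 0) in the 6 sets of libraries that share a first index and hold both stages. Filled points are NSN and open points SN oocytes, coloured by Nlrp5 genotype. For Gja1 the open points lie above the filled ones in 6 of 6 sets, in the Nlrp5 -/- set by 21.0 against 20.5.

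Gjc1 was the lowest of the 3 members, with 0 to 36 reads in each group of a genotype and stage, and pooled levels from 0 CPM in Nlrp5 -/- SN to 0.974 CPM (0.682 to 1.35) in Nlrp5 +/+ NSN and 1.005 CPM (0.683 to 1.43) in Nlrp5 -/- NSN oocytes. The 4 Nlrp5 +/+ NSN oocytes had 0, 1.89, 6.45 and 20.01 normalized counts and the 4 Nlrp5 -/- NSN oocytes 0, 0, 12.9 and 16.6, and the groups overlapped fully. Their means were 7.09 ± 9.03 and 7.39 ± 8.66 (SD, n = 4 each). Oocyte 79 held 27 of the 36 Nlrp5 +/+ NSN reads, so the pooled level of that group rests on it. Without it the log2 difference was 1.15, where 11.6% of all genes with a count were higher by at least 1. The 2 Nlrp5 -/- values above 0 were again those of oocytes 13 and 14, and oocyte 15 had 29.4, the highest of all. In Nlrp5 +/- oocytes Gjc1 ran from 0 to 12.2 in NSN and from 0 to 7.56 in SN.

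Both Nlrp5 -/- SN oocytes had 0 Gjc1 counts, against a level of 0.183 CPM for 3 counts over the group and an exact Poisson upper limit of 0.225 CPM. The 6 Nlrp5 +/+ SN oocytes pooled had 0.385 CPM (0.252 to 0.564) from 26 reads, with values from 0 to 9.16 normalized counts and a median of 1.26. Oocyte 86 held the highest of these values and 16 of the reads. Without it the pooled level was 0.186 CPM (0.0893 to 0.342). The interval over all 6 lies above the 0 to 0.225 CPM of the Nlrp5 -/- oocytes and that without oocyte 86 overlaps it, so the difference in Gjc1 rests on that oocyte. Against Nlrp5 +/- SN oocytes, at 0 to 7.56, the log2 value of -1.70 for Nlrp5 -/- depends on the added count of 1, and 5.56% of genes were lower by at least 1 there. From NSN to SN in Nlrp5 +/+ oocytes Gjc1 was lower by a log2 difference of -1.20, with overlapping groups, where 8.82% of genes were lower by at least 1. Without oocyte 79, which held 27 of the 36 NSN reads, it was -0.099.

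The genes whose pattern over the 33 oocytes was most like each member were ranked by Spearman rank correlation among 13896 genes with a mean of at least 10. For Gja1 they were Inha (0.79), Tceal9 (0.76), Cdc42ep5 (0.76), F11r (0.74) and Rsrp1 (0.73). F11r encodes a junctional adhesion molecule and Cdc42ep5 an effector of the small GTPase CDC42. The same 5 genes kept ranks 1 to 5 without oocyte 15, with rank correlations from 0.70 to 0.77, and had rank correlations from 0.62 to 0.69 over the 26 oocytes that were not Nlrp5 -/-. For Gja4 they were Tex264 (0.89), Arrdc1 (0.89), Dnajc11 (0.88), Pstpip1 (0.88) and Ctnnbl1 (0.87), all between 0.86 and 0.88 without oocyte 15. For Gjc1 they were Nek9 (0.68), Ddx21 (0.66), Cdr2l (0.65), Inppl1 (0.63) and Sox13 (0.61), a ranking that rests on 177 reads in all. The points of each correlation share the library, its depth and its stage.

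Among the 3 members, the Spearman rank correlation was 0.37 for Gja1 and Gja4 (0.42 without oocyte 15), -0.03 for Gja1 and Gjc1, and -0.17 for Gja4 and Gjc1 over 33 oocytes.

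Among the other connexin genes, 6 of 17 passed a mean of 10 in the comparison of Nlrp5 -/- with Nlrp5 +/+ NSN oocytes. None was higher by a log2 difference of 1, and Gjb2 and Gja6 were lower by that much, where 3.21% of all genes were. Gja6 passed the mean of 10 only through the Nlrp5 +/+ oocytes and Gjb2 only through oocyte 79, so nothing is read from their number against that share. For Gjb2 this rested on oocyte 79, at 247 normalized counts against 0 to 14.1 in the other 3 Nlrp5 +/+ NSN oocytes and 0 to 24.4 in Nlrp5 -/-, and without it the log2 difference turned from -2.60 to 0.65. That of Gja6, -1.04, was -0.73 without oocyte 79 and -0.89 without oocyte 29. In SN oocytes 5 passed, of which Gja10 and Gjb2 were lower (5.99% of all genes) and none higher, Gjb2 having passed only through the Nlrp5 +/+ oocytes. Their log2 differences of -1.18 and -1.20 were -2.02 and -1.64 without oocyte 7 and -0.65 and -0.86 without oocyte 31, each from the single Nlrp5 -/- oocyte left. The median log2 difference over those that passed was 0.06 in NSN and -0.04 in SN, against 0.00099 and -0.0016 over all genes. Gjb1, the connexin next to Gja4 in level, was higher in SN than in NSN oocytes of each genotype by mean: 88.1 ± 15.4 (SD, n = 6) against 52.2 ± 23.5 (n = 4) normalized counts in Nlrp5 +/+, 76.8 ± 15.7 (n = 7) against 44.4 ± 19.6 (n = 9) in Nlrp5 +/-, and 98.4 and 153.8 against 37.6 to 78.99 in Nlrp5 -/-. Only the Nlrp5 -/- groups did not overlap, with 2 SN oocytes above 4 NSN oocytes, as was so for 9.47% of genes in that comparison.

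Panx1 stood apart among the channel genes. In NSN oocytes it had 170, 182, 212 and 229 normalized counts in Nlrp5 -/- against 279, 293, 408 and 444 in Nlrp5 +/+, and 283 to 543 in Nlrp5 +/-. In SN oocytes it had 161 and 178 in Nlrp5 -/- against 290 to 425 in Nlrp5 +/+ and 242 to 488 in Nlrp5 +/-. Each staged Nlrp5 -/- oocyte thus lay below each staged oocyte of the other genotypes. Genes without overlap in that direction made up 3.14% and 7.85% of those tested against Nlrp5 +/+ in NSN and SN oocytes, and 0.686% and 5.81% against Nlrp5 +/-. The log2 difference from Nlrp5 +/+ was -0.84 in NSN and -1.09 in SN, and -0.85 in NSN without oocytes 13 and 14. Oocyte 15 had 279 normalized counts, just under the lowest Nlrp5 +/+ oocyte and within the Nlrp5 +/- range.

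Apart from Cav1, the adhesion partners of the junction were well expressed in every group. Of 8 adhesion and scaffold genes, 7 lay within a log2 difference of 1 between Nlrp5 -/- and Nlrp5 +/+ NSN oocytes. Cdh1 (E-cadherin) averaged 1471 ± 166 and 1290 ± 212 normalized counts (SD, n = 4 each), and Ctnnb1 (beta-catenin) 2468 ± 250.3 and 2380 ± 465.7. The exception was Cav1, which encodes the caveolar coat protein, with 10.6 to 67.9 normalized counts in Nlrp5 -/- NSN oocytes and 0 to 8.30 in Nlrp5 +/+, a log2 difference of 3.05 where 4.93% of genes were higher by at least 1. It passed the mean of 10 only through the Nlrp5 -/- oocytes. Oocyte 29 held the highest of these values, without which the difference was 2.20, and oocyte 61 also had 63.6. In SN oocytes 7 of 8 passed and all of them lay within a log2 difference of 1.

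Of the 4 genes for the actin of transzonal projections, Fscn1, which bundles actin filaments, was the one past a log2 difference of 1 in NSN oocytes, at 1.40 (4.93% of genes were higher by at least 1). Its Nlrp5 -/- values were 17.2, 17.4, 75.7 and 354 normalized counts, against 16.03 to 58.1 in Nlrp5 +/+. The 2 highest are those of oocytes 13 and 14, and oocyte 15 had 2210. The difference was -0.24 without oocyte 14 and -1.28 without oocytes 13 and 14. Of the 8 genes of the cyclic GMP and cyclic AMP signals that the junction carries, Pde3a, the oocyte phosphodiesterase that cyclic GMP restrains, averaged 2072 ± 383 normalized counts in Nlrp5 -/- and 2327 ± 614 in Nlrp5 +/+ NSN oocytes. Nppc and Npr2, the ligand and receptor that make cyclic GMP in granulosa cells, were at 0 to 7.62 and 0 to 22.2 normalized counts in the staged oocytes and at 46.2 and 65.6 in oocyte 15. Of the genes of guanine nucleotide synthesis, Impdh1 was higher in Nlrp5 -/- than in Nlrp5 +/+ NSN oocytes by a log2 difference of 1.27, which was 0.29 without oocyte 14 and its 60.3 normalized counts. It passed the mean of 10 only through the Nlrp5 -/- oocytes. Impdh2 averaged 94.6 normalized counts in Nlrp5 -/- SN oocytes, 64.6 in Nlrp5 +/- and 27.9 in Nlrp5 +/+. Its log2 difference from Nlrp5 +/+ was 1.72 for Nlrp5 -/- (4.07% of genes were higher by at least 1) and 1.18 for Nlrp5 +/-, and between the littermate genotypes it was 0.54.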

How the data were processed

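RNA of 33 single germinal vesicle oocytes was read by Smart-seq2 after separation from the genomic DNA, whose methylation data were not used here. The deposited values are raw counts per gene, 1 column per oocyte, made by the authors with a SeqMonk probe report after trimming with Trim Galore and alignment with HISAT2 to GRCm38 per the labels. The methods name GRCm39 and state that libraries with few reads were removed. Of 35373 rows, 52 repeated an identifier, and only the first of each was kept, leaving 35321 genes.

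Genotypes came from the labels. The labels give no stage, so stages were read from the study's staging figure, in which the bars of oocytes 55 and 61 go against their neighbours and more Nlrp5 +/- oocytes have a bar than the study's text counts. Counts were divided by median-of-ratios size factors, and group means were compared as log2 ratios after adding 1. Genes were counted among those with a mean of at least 10, or among all genes with a count where so stated. Lengths and sequences came from GENCODE M39. No test of a difference between groups was run, since the labels name no mouse. Poisson and binomial intervals are exact, at 95%, and cover counting error only. Members and lists were chosen with earlier results of these data known. Genes named were those of the lists, and for each member the 5 genes of highest Spearman rank correlation over the 33 oocytes among genes with a mean of at least 10. Alternatives were CPM and TMM scaling (edgeR 4.0.16), an added count of 5, medians in place of means, no filter, other settings of stage, and leaving out oocytes. Those on oocyte 15 as NSN, oocyte 61 alone as SN, oocytes 13 and 14, the 14 markers, the whole marker lists, single oocytes left out of named genes, oocyte 55 as NSN and the first index were chosen after seeing the data. The code was tested on simulated data. Python 3.11.15, numpy 2.4.6, pandas 2.3.3 and scipy 1.17.1 were used.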

Additional observations from a re-analysis of the deposited data

Results flagged for a closer look

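In Nlrp5 +/- NSN oocytes, oocyte 61 had 51.5 normalized counts of Gja1, with the next at 8.29, a gap that takes 0.839 of the group's whole range. In Nlrp5 +/+ SN oocytes, oocyte 86 had 9.16 normalized counts of Gjc1, with the next at 2.68, a gap of 0.707 of the range. In Nlrp5 +/+ NSN oocytes, oocyte 79 had 247 normalized counts of Gjb2, with the next at 14.1, a gap of 0.943 of the range. Each gap is above Dixon's critical value for its group size at the 95% level, which served here only to pick values for a closer look, since oocytes of 1 mouse may not be independent. Such a gap was looked for in 30 groups of oocytes and found in 3. Chance gives about 1 in 20 for normally distributed values. Low counts with many zeros are not so distributed, so nothing is read from that rate. Oocyte 15, which has no stage and entered no comparison between stages or genotypes other than as an alternative, had 1452 normalized counts of Gja1, above every Nlrp5 +/+ oocyte, whose highest was 20.2. The causes of these values were not tested.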

How the results depend on the processing

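Differences are log2, first group over second. Without oocytes 13 and 14, chosen after seeing the data, Gja1 in NSN oocytes moved from 6.30 to 2.59 for Nlrp5 -/- against Nlrp5 +/+ and from 4.56 to 0.85 against Nlrp5 +/-, and its SN to NSN difference in Nlrp5 -/- turned from -1.81 to 1.90. Gjc1 moved from 0.05 to -3.02 against Nlrp5 +/+ and from 0.96 to -2.10 against Nlrp5 +/-, and from -3.07 to 0 for SN against NSN in Nlrp5 -/-, since both remaining oocytes had 0 counts. With no regard to stage and oocyte 15 included, Gja1 for Nlrp5 -/- against Nlrp5 +/+ was 5.59 against 2.68 in SN oocytes, and Gjc1 turned from -1.82 to 0.82. With 5 added in place of 1, Gjc1 in SN oocytes was -0.59 and 5 of 18 other member comparisons were past a log2 difference of 1 instead of 8. Leaving out 1 oocyte at a time gave, in SN oocytes of Nlrp5 -/- against Nlrp5 +/+, 1.07 (without oocyte 7) to 3.42 for Gja1 and 0.030 to 0.71 for Gja4, and against Nlrp5 +/-, 0.091 to 2.44 and 0.013 to 0.70. For Gja4 in SN against NSN Nlrp5 -/- oocytes it gave -0.00087 to 0.68. The rank correlation of Gja1 with the granulosa markers was 0.36 with 19 markers and 0.69 with 14. With no filter on low counts, the listed junction genes past a log2 difference of 1 numbered 8 instead of 5 in NSN and 7 instead of 4 in SN oocytes, of 40 on the lists, where 18.4% and 19.4% of all genes with a count were. CPM in place of size factors moved the median of all genes by -0.11 for SN against NSN in Nlrp5 +/+ oocytes and by under 0.1 elsewhere. The causes were not tested where no count of 0 or number of oocytes shows them. Gja1 for Nlrp5 +/- against Nlrp5 +/+ moved with medians from 1.74 to 0.78 in NSN and from 0.98 to 1.86 in SN oocytes, within 1 SD between oocytes. The other alternatives run, TMM scaling and oocytes 55 and 61 in the other stage included, moved the log2 differences by less than 1 SD between oocytes and the counts by less than 1.5 times. No paired analysis was possible because the replicate numbers only name oocytes and no comparison comes from a test. Libraries that share a first index were set side by side only as values. Depth limited Gjc1, at 0 counts in 14 oocytes, and Gja1 outside Nlrp5 -/-.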
